A study of Mus musculus with 34 samples.

Results

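The hypoxia-inducible factor (HIF) pathway was examined in the dorsal hippocampus of mice through 10 genes, chosen by name from the 54532 genes of the bulk RNA-seq table. They are the alpha subunits *Hif1a*, *Epas1* and *Hif3a*, the beta subunits *Arnt* and *Arnt2*, the prolyl hydroxylases *Egln1*, *Egln2* and *Egln3*, and the target genes *Vegfa* and *Bnip3*. The question was whether a higher *Hif3a* level following learning came with changes in the genes that HIF controls. The study had named *Hif3a* among the genes found changed by its bulk RNA-seq but not by its pooled spatial transcriptomics. The 10 genes were therefore chosen with that bulk result known. Tissue came from adult male C57BL/6J mice, with 1 library per mouse. In 4 mice the dorsal hippocampus was collected 1 h after spatial object recognition (SOR) training, in which a mouse explores an open field that holds objects. The other 4 were homecage controls, euthanized at the same time without training. No group carried a transgene or received a drug, and mice were housed singly. The comparison is therefore of the whole training session, open field and objects included, against staying in the homecage. Library totals were 51406011 to 81525977 estimated counts.

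Cells sense oxygen through the stability of HIF alpha subunits. With oxygen present, EGLN enzymes hydroxylate the alpha subunit, the von Hippel-Lindau protein binds it and the proteasome degrades it. When oxygen falls, the alpha subunit persists, pairs with an ARNT partner and binds hypoxia response elements, whose core reads ACGTG, in genes for glucose uptake, glycolysis, blood vessel growth and mitophagy. *Egln3*, and *Egln1* to a lesser degree, are themselves HIF targets, which closes a feedback loop, and several products of *Hif3a* lack the main activation domain and can oppose the other alpha subunits. Because alpha subunits are set mainly through protein stability, an mRNA level need not follow HIF activity.

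The stretches upstream of the start sites are shown because they set genes whose groups did not overlap, with and without the HIF core, beside *Bnip3*, which carries it. Each is the 250 bases before a RefSeq start on GRCm38.p6, read 5' to 3' on the gene's own strand, with every ACGTG of either strand in capitals (where both strands read it the stretch is CACGTG).
Hif3a, chr7:17062428-17062677, minus strand: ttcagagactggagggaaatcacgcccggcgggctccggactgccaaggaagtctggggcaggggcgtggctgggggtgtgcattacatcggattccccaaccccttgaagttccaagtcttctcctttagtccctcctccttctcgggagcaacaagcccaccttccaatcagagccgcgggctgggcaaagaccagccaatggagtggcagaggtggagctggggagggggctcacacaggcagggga
Vegfa, chr17:46032378-46032627, minus strand: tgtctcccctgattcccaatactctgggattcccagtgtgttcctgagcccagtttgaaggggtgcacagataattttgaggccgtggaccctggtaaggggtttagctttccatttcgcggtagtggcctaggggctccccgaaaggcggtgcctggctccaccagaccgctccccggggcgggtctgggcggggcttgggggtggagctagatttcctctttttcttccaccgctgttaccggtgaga
Egln2, chr7:27166803-27167052, minus strand: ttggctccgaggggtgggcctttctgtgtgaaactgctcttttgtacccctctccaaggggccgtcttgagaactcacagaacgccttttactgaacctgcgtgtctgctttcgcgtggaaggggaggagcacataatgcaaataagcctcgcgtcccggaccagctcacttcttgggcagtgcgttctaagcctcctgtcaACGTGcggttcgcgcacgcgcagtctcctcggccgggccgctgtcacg
Bnip3, chr7:138909507-138909756, minus strand: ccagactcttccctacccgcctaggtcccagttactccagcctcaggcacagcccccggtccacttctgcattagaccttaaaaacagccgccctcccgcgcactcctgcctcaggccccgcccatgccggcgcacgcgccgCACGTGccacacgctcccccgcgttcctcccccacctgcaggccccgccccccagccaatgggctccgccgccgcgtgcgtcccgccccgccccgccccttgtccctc
Slc2a1, chr4:119108495-119108744, plus strand: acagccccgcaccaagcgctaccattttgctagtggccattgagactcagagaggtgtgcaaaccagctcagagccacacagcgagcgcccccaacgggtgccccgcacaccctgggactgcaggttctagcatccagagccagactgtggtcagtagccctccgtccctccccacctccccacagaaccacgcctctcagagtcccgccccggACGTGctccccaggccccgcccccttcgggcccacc
The *Hif3a* window holds no ACGTG, nor does that of the first *Vegfa* start. The window of a second, downstream *Vegfa* start (chr17:46025164-46025413), which lies inside the gene, holds it at -211. The core begins at position -48 relative to the start in *Egln2*, at -108 in *Bnip3* and at -36 in the glucose transporter gene *Slc2a1*. Not printed here, the windows of the targets *Jmjd6* and *P4ha1* hold it at -228 and -16. Of the 10 genes, 9 matched the promoter table and *Epas1* did not. They gave 11 windows, of which 6 held ACGTG, the downstream *Vegfa* window among them, against 16.6% of all 32851 windows of this length. ACANNNTGT, the core of the glucocorticoid response element, was in 0 of the 11 windows and in 5.84% of all windows. At that share, 0 in so few windows is an ordinary result. A match is a run of letters and not a shown binding site. Bases outside these windows were not searched, so a window without a match does not show that a gene lacks the element.

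*Hif3a* (ENSMUSG00000004328, chr7:17031507-17062427, minus strand) showed the largest difference of the 10 genes. Its level in CPM (estimated counts scaled to an equal library size) was 0.999, 0.758, 0.660 and 0.678 in homecage replicates 1 to 4 and 3.40, 1.48, 1.66 and 4.75 in SOR replicates 1 to 4. Every SOR mouse lay above every homecage mouse, and the SOR mice spread far more widely, with replicates 1 and 4 well above replicates 2 and 3. The means were 0.774 ± 0.156 and 2.82 ± 1.55 CPM (SD, n = 4 each), a log2 fold change of 1.87 (SE 0.36), or 3.65-fold with a 95% interval of 2.10 to 6.34. This did not pass the threshold of 0.05 in edgeR's quasi-likelihood test with Benjamini-Hochberg adjustment over 22018 genes (adjusted p = 0.0775), while the exact two-sided permutation test over the 70 assignments gave its smallest possible p of 0.0286. The estimate rested on 37.5 to 55.1 counts in homecage libraries and 82.4 to 253 in SOR libraries.

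**Figure D1:**
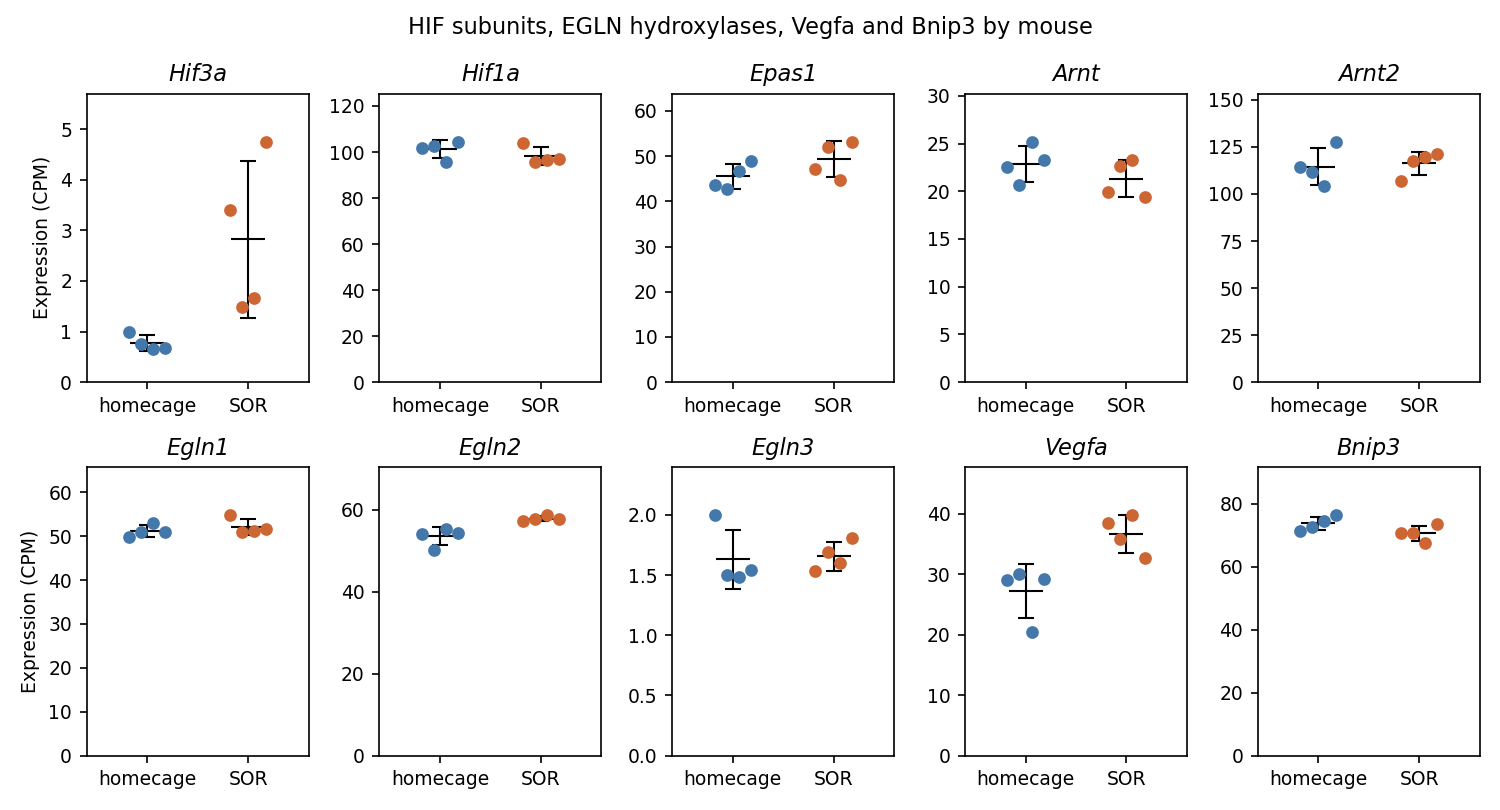
Expression of each of the 10 genes in CPM (vertical axes, each starting at 0) for the 4 homecage and 4 SOR mice, with points for mice and bars for the mean ± SD. For *Hif3a*, *Egln2* and *Vegfa* all 4 SOR mice sit above all 4 homecage mice, and for the other 7 genes the groups overlap.

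Whether *Hif3a* was past the threshold depended on the test. With the same counts it was past it under edgeR's likelihood ratio test (log2 fold change 1.87, adjusted p = 3.23e-04), under DESeq2 (1.89, adjusted p = 2.45e-05), without a filter on low counts (1.86, adjusted p = 0.0308) and under the likelihood ratio test with 1, 2 or 3 added RUVs factors of unwanted variation (1.83, 1.64 and 1.64). The RUVs fits thus differ from the reported one in the test as well as in the factors, and the likelihood ratio test without factors already passed. It was not under limma-voom (1.72, adjusted p = 0.164) or any of the 8 edgeR quasi-likelihood fits that left out a mouse (adjusted p 0.0567 to 0.255), whose log2 fold changes ran from 1.5 without SOR replicate 4 to 2.08 without SOR replicate 2. SOR was above homecage in all 20 alternative fits.

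**Figure D2:**
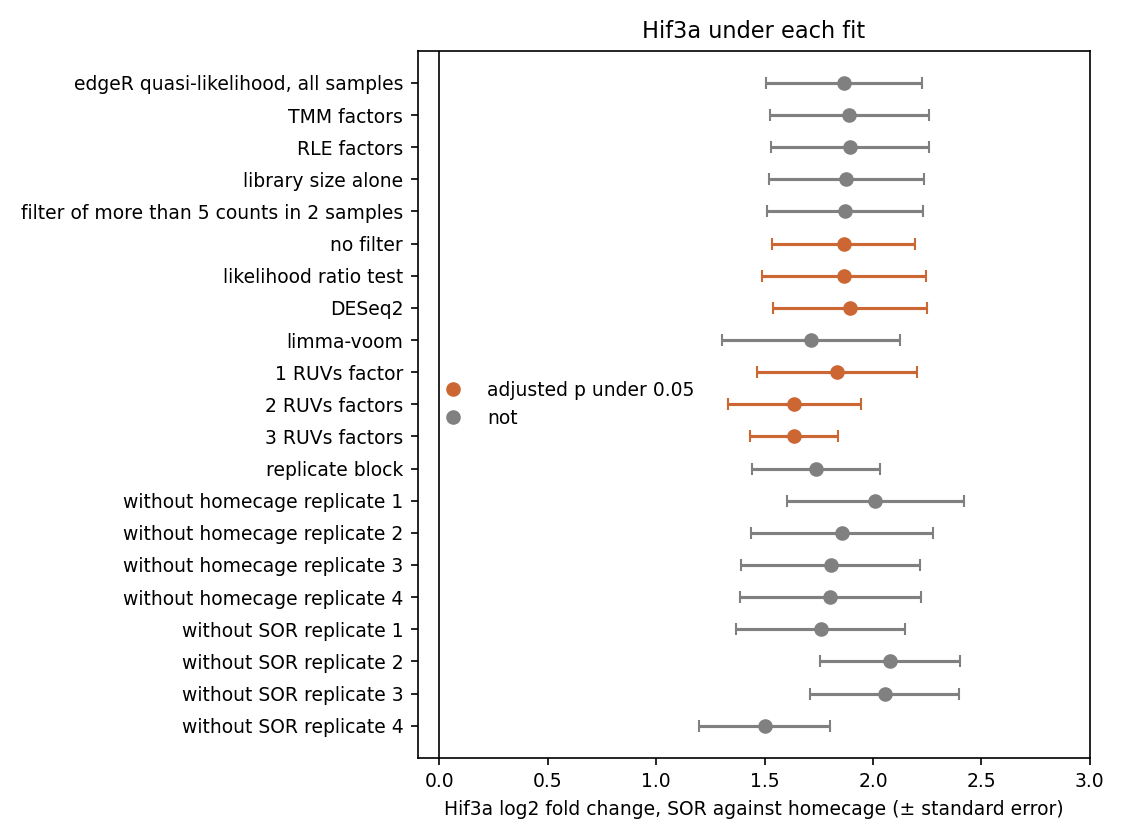
Log2 fold change of *Hif3a* (horizontal axis, ± standard error), SOR against homecage, for the reported edgeR quasi-likelihood fit and 20 alternatives, coloured by whether the adjusted p is under 0.05. All estimates lie between 1.5 and 2.08, and 6 of the 20 alternatives pass.

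Markers of cell types were also read in these libraries, and 0 passed the adjusted threshold of edgeR's quasi-likelihood test in any list. Over all genes tested, 43.8% were higher in SOR and 10.1% had an unadjusted p under 0.05. The summed level of 5 red blood cell markers was 98.6, 125, 115 and 127 CPM in homecage mice and 177, 115, 118 and 184 CPM in SOR mice, so SOR replicates 1 and 4, the highest in *Hif3a*, were also the highest in these. All 5 were higher in SOR (median log2 fold change 0.37) and 0 of 5 passed the adjusted threshold in edgeR's quasi-likelihood test, with 2 at an unadjusted p under 0.05. In SOR replicates 2 and 3 the red blood cell sum lay within the homecage range and *Hif3a* was above all 4 homecage mice. All 8 choroid plexus markers were higher too (median 1.32, 0 past the adjusted threshold and 0 at an unadjusted p under 0.05), summing to 249 to 1940 CPM in homecage mice and 262 to 6060 CPM in SOR mice. By mouse, these choroid plexus sums were 1940, 249, 321 and 1600 CPM in homecage replicates 1 to 4 and 6060, 1600, 1400 and 262 CPM in SOR replicates 1 to 4. No marker of either list was at 0 in any mouse. All 10 oligodendrocyte markers were lower in SOR (median -0.17, 0 past the adjusted threshold and 3 at an unadjusted p under 0.05), summing to 5920 to 6480 CPM in homecage mice and 4860 to 6390 CPM in SOR mice. Of 9 microglial markers 7 were lower (median -0.09, 0 past it and 3 at an unadjusted p under 0.05), with sums of 316 to 360 and 299 to 342 CPM. Of the other lists, 1 of 10 neuronal, 6 of 11 astrocyte, 6 of 12 endothelial and 4 of 9 mural markers were higher. Their median log2 fold changes were -0.0163, 0.0171, -0.0046 and -0.0075, and 0, 2, 2 and 1 markers had an unadjusted p under 0.05. The part of any of these lists in the *Hif3a* difference was not tested. In bulk tissue, a change in the number of cells that express a gene and a change in its RNA per cell cannot be told apart.

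A second transcript inside *Hif3a* showed a like pattern. 4833404L02Rik, an unverified transcript on the opposite strand that shares 0 exon bases with *Hif3a* and was looked at after its values were seen, had 1.91, 5.04, 1.03 and 6.78 counts in homecage and 23.1, 10.7, 11.8 and 16.7 counts in SOR libraries. Its log2 fold change was 2.15 (SE 0.45, edgeR quasi-likelihood with Benjamini-Hochberg, adjusted p = 0.107). The sources used here do not say whether counting used the strand, so its reads and those of intronic *Hif3a* RNA cannot be told apart.

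The other alpha subunits, which carry the hypoxic response in most tissues, did not pass any test. *Hif1a* (ENSMUSG00000021109, chr12:73901375-73947530, plus strand) was at 102, 103, 95.7 and 105 CPM in homecage mice and 104, 95.8, 96.6 and 96.8 CPM in SOR mice. Its log2 fold change was -0.04 with a 95% interval of -0.14 to 0.05 (edgeR quasi-likelihood with Benjamini-Hochberg, adjusted p = 0.800), so a change of the size estimated for *Hif3a* lies far outside its interval. *Epas1*, which encodes HIF-2 alpha (ENSMUSG00000024140, chr17:86753700-86833410, plus strand), was at 43.7, 42.7, 46.6 and 49.0 CPM in homecage mice and 47.2, 52.0, 44.7 and 53.2 CPM in SOR mice. The groups overlapped, with a log2 fold change of 0.11 (95% interval -0.03 to 0.26, adjusted p = 0.611, edgeR quasi-likelihood with Benjamini-Hochberg).

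*Hif3a* was the least abundant alpha subunit in both groups. In CPM per kilobase of exon, its share of the 3 alpha subunits was 0.590%, 0.448%, 0.399% and 0.380% in homecage and 1.91%, 0.854%, 1.0% and 2.66% in SOR mice. *Hif1a* made up 61.6% to 69.2% and *Epas1* 30.4% to 36.1% over the 8 mice.

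The ARNT partners had groups that overlapped. *Arnt* (ENSMUSG00000015522, chr3:95434388-95497240, plus strand) encodes the widely expressed partner and *Arnt2* (ENSMUSG00000015709, chr7:84246278-84410176, minus strand) the one enriched in neurons. *Arnt* was at 22.5, 20.6, 25.2 and 23.2 CPM in homecage mice and 19.9, 22.6, 23.3 and 19.4 CPM in SOR mice (log2 fold change -0.10, 95% interval -0.28 to 0.08). *Arnt2* was at 114, 112, 104 and 128 CPM in homecage mice and 107, 117, 119 and 121 CPM in SOR mice (0.02, interval -0.12 to 0.16). Adjusted p was 0.737 and 0.949 in edgeR's quasi-likelihood test with Benjamini-Hochberg adjustment. Per kilobase, *Arnt2* exceeded *Arnt* 4.31 to 5.73 times in homecage and 5.35 to 6.49 times in SOR mice.

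Of the hydroxylases, only *Egln2* had groups that did not overlap, and the difference was small. *Egln2* (ENSMUSG00000058709, chr7:27158658-27166802, minus strand), whose product is PHD1, was at 54.2, 50.2, 55.3 and 54.4 CPM in homecage mice and 57.1, 57.6, 58.6 and 57.6 CPM in SOR mice. That is a log2 fold change of 0.11 (95% interval 0.02 to 0.20), or 1.08-fold, with an adjusted p of 0.405 in edgeR's quasi-likelihood test with Benjamini-Hochberg adjustment and an exact permutation p of 0.0286.

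The genes of the feedback loop showed no such separation. *Egln1* (ENSMUSG00000031987, chr8:124908587-124949324, minus strand), the main oxygen sensor PHD2, was at 49.9, 50.9, 53.1 and 50.9 CPM in homecage mice and 54.8, 51, 51.1 and 51.6 CPM in SOR mice (log2 fold change 0.03, 95% interval -0.07 to 0.12). *Egln3* (ENSMUSG00000035105, chr12:54178981-54203860, minus strand), PHD3 and the most strongly hypoxia-induced of the family, was at 2.00, 1.5, 1.48 and 1.54 CPM in homecage mice and 1.53, 1.69, 1.6 and 1.81 CPM in SOR mice. Its log2 fold change of 0.02 had an interval of -0.29 to 0.34, wide enough that a modest change either way could not be detected in these libraries. Adjusted p was 0.888 for *Egln1* and 0.977 for *Egln3* (edgeR quasi-likelihood with Benjamini-Hochberg), and the sign of *Egln1*, *Egln3* and *Arnt2* turned when some single mice were left out.

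The 2 target genes among the 10 differed from each other. *Vegfa* (ENSMUSG00000023951, chr17:46016993-46032369, minus strand), the vascular growth factor, was at 29.0, 30.0, 20.5 and 29.2 CPM in homecage mice and 38.4, 35.8, 39.8 and 32.6 CPM in SOR mice. All SOR mice were above all homecage mice, of which replicate 3 was well below the rest. The means were 27.2 ± 4.49 and 36.7 ± 3.14 CPM (SD, n = 4 each), a log2 fold change of 0.43 (95% interval 0.18 to 0.68), or 1.35-fold. The exact permutation p was 0.0286 and the adjusted p was 0.211 in edgeR's quasi-likelihood test with Benjamini-Hochberg adjustment. Without homecage replicate 3 the log2 fold change was 0.32 (adjusted p = 0.222). *Vegfa* was past the adjusted threshold under edgeR's likelihood ratio test (adjusted p = 0.0485), DESeq2 (adjusted p = 0.00793) and each of the 3 RUVs fits, which also used the likelihood ratio test.

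*Bnip3* (ENSMUSG00000078566, chr7:138890836-138909519, minus strand), a mitophagy receptor strongly induced by HIF-1 in hypoxic cells, was at 71.5, 72.8, 74.5 and 76.4 CPM in homecage mice and 70.6, 70.6, 67.7 and 73.6 CPM in SOR mice. The groups overlapped and the log2 fold change was -0.06 (95% interval -0.15 to 0.03, adjusted p = 0.644, edgeR quasi-likelihood with Benjamini-Hochberg). An antisense gene, Gm45507, shares 504 exon bases with *Bnip3* and stood at 0.0714 to 2.34 CPM over the 8 mice.

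**Figure D3:**
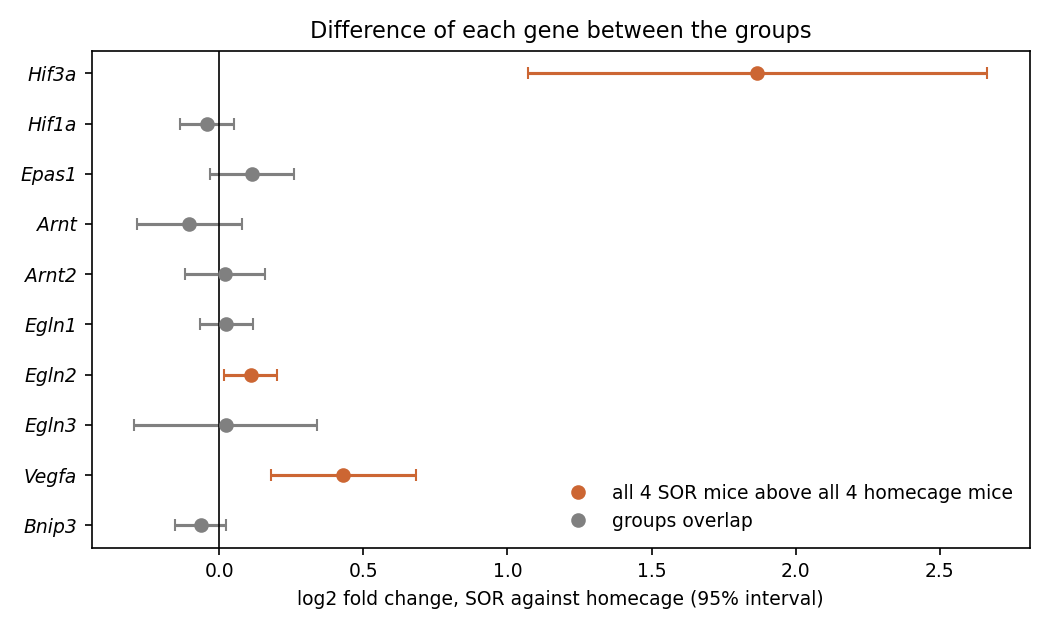
Log2 fold change of each of the 10 genes, SOR against homecage (horizontal axis), with its 95% interval and colour by whether the groups overlap. *Hif3a* stands at 1.87, *Vegfa* at 0.43 and *Egln2* at 0.11 with intervals above 0, and the intervals of the other 7 genes include 0.

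Counted together, 0 of the 10 genes were called at an adjusted p under 0.05 with a fold change above 1.4, where 0.173% of all genes tested were (edgeR quasi-likelihood with Benjamini-Hochberg). Counts with the other tests were 1 (*Hif3a*) under the likelihood ratio test, DESeq2, no filter and each RUVs fit, and 0 under limma-voom. At an unadjusted p under 0.05 there were 3 of 10, *Hif3a*, *Vegfa* and *Egln2*, against 10.1% of all genes tested. The same 3 had every SOR value above every homecage value, as 2.98% of all genes tested did, and 0 of 10 lay wholly below, against 3.96%. *Hif3a* is counted here although its difference, already known from these data, led to the choice of the 10 genes. The counts that include it are therefore no independent evidence. The median log2 fold change was 0.02 over the 10 genes and -0.02 over all genes tested.

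Levels per length set the 10 genes in order. In homecage mice, mean CPM per kilobase ran from 32.6 ± 0.940 for *Bnip3* through 19.1 ± 0.802 for *Egln2*, 17.2 ± 0.649 for *Hif1a*, 14.9 ± 1.28 for *Arnt2* and 14.2 ± 0.375 for *Egln1*. Below these came *Epas1* at 8.14 ± 0.506, *Vegfa* at 6.34 ± 1.05, *Arnt* at 2.86 ± 0.236, *Egln3* at 0.613 ± 0.0924 and *Hif3a* at 0.115 ± 0.0233 (SD, n = 4 mice). The ranges of neighbours overlapped for *Hif1a* with *Arnt2* and for *Arnt2* with *Egln1*, and were apart for the other 7 pairs of neighbours. In SOR mice *Hif3a* was at 0.421 ± 0.231, with a highest mouse of 0.708.

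Genes that HIF is known to induce were then read as a list of 60, *Vegfa* and *Bnip3* included, of which 59 were tested and *Epo* was not. Of these, 36 were higher and 23 lower in SOR (median log2 fold change 0.03), with 61.0% higher against 43.8% of all genes tested. The adjusted threshold was passed by 2, both higher, where 0.273% of all genes tested passed it in that direction. At an unadjusted p under 0.05 there were 14 higher and 3 lower, 28.8% of the list against 10.1% of all genes. Groups did not overlap for 7 higher genes, 11.9% of the list against 2.98% of all genes. They did not overlap for 2 lower ones either, where 3.96% of all genes lay wholly below. This list, like the other gene lists here, was chosen with earlier results of these data known. Its shares are therefore a description and no independent evidence.

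The 2 that rose were *Slc2a1* and *Jmjd6*. *Slc2a1*, which encodes the glucose transporter GLUT1 of the blood-brain barrier and astrocytes, was at 23.8, 22.9, 25.8 and 26.8 CPM in homecage mice and 32.7, 32.2, 30.4 and 33.0 CPM in SOR mice (log2 fold change 0.37, SE 0.0622, adjusted p = 0.0403). *Jmjd6*, an iron-dependent lysyl hydroxylase, was at 22.0, 19.1, 20.6 and 19.0 CPM in homecage mice and 31.5, 26.4, 28.0 and 26.3 CPM in SOR mice (0.48, SE 0.0767, adjusted p = 0.0332). In both, the lowest SOR mouse was above the highest homecage mouse. These adjusted p come from edgeR's quasi-likelihood test with Benjamini-Hochberg adjustment. With library size alone as the scaling neither passed (adjusted p = 0.0529 and 0.0613), with the replicate number as a block *Slc2a1* did not (adjusted p = 0.135), and with 1 mouse left out *Slc2a1* passed in 0 of 8 fits and *Jmjd6* in 1 of 8.

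*P4ha1*, a collagen prolyl hydroxylase subunit, had the largest difference among listed targets with a mean of at least 1 CPM. It was at 59.6, 55.3, 60.5 and 55.8 CPM in homecage mice and 131, 85.2, 81.5 and 88.0 CPM in SOR mice (log2 fold change 0.74, SE 0.131, edgeR quasi-likelihood with Benjamini-Hochberg, adjusted p = 0.0540). SOR replicate 1 stood far above the other SOR mice, and leaving that mouse out gave 0.55 (adjusted p = 0.00129), the only one of 8 such fits that passed. With all mice it passed in 7 of 12 alternatives: both other filters (adjusted p = 0.048 and 0.0117), the likelihood ratio test, DESeq2 and the 3 RUVs fits, at log2 fold changes of 0.66 to 0.76. The other 3 higher targets with groups that did not overlap were named after their values were seen. They are the histone demethylase gene *Kdm3a* (log2 fold change 0.24), the mTOR inhibitor gene *Ddit4* (0.42) and *Stc2* (0.48), with adjusted p of 0.144, 0.213 and 0.268 in edgeR's quasi-likelihood test with Benjamini-Hochberg adjustment. The 2 targets that lay wholly lower, *Tgfa* at -0.17 and *Kdm4c* at -0.11, were likewise named after the fact and did not pass (adjusted p = 0.369 and 0.405).

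Within glycolysis most values lay near the all-gene median. Among the 20 glycolytic targets, from glucose entry to lactate export, the median log2 fold change was 0.01, with *Slc2a1* at 0.37 and the lactate transporter gene *Slc16a3* at -0.10 as the extremes, and 1 passed the adjusted threshold. The 37 tested targets outside glycolysis had a median of 0.06 and a range of -0.45 to 0.84, with 1 past the threshold. At an unadjusted p under 0.05 in edgeR's quasi-likelihood test were 11 higher and 3 lower of the 37, or 37.8%. Of the 20 glycolytic targets 2 were, or 10.0%, against 10.1% of all genes tested. Groups did not overlap for 5 higher and 2 lower genes of the 37, and for 1 higher glycolytic gene. *Wsb1*, a ubiquitin ligase subunit, was lowest among those of at least 1 CPM, at -0.23 (adjusted p = 0.412).

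**Figure D4:**
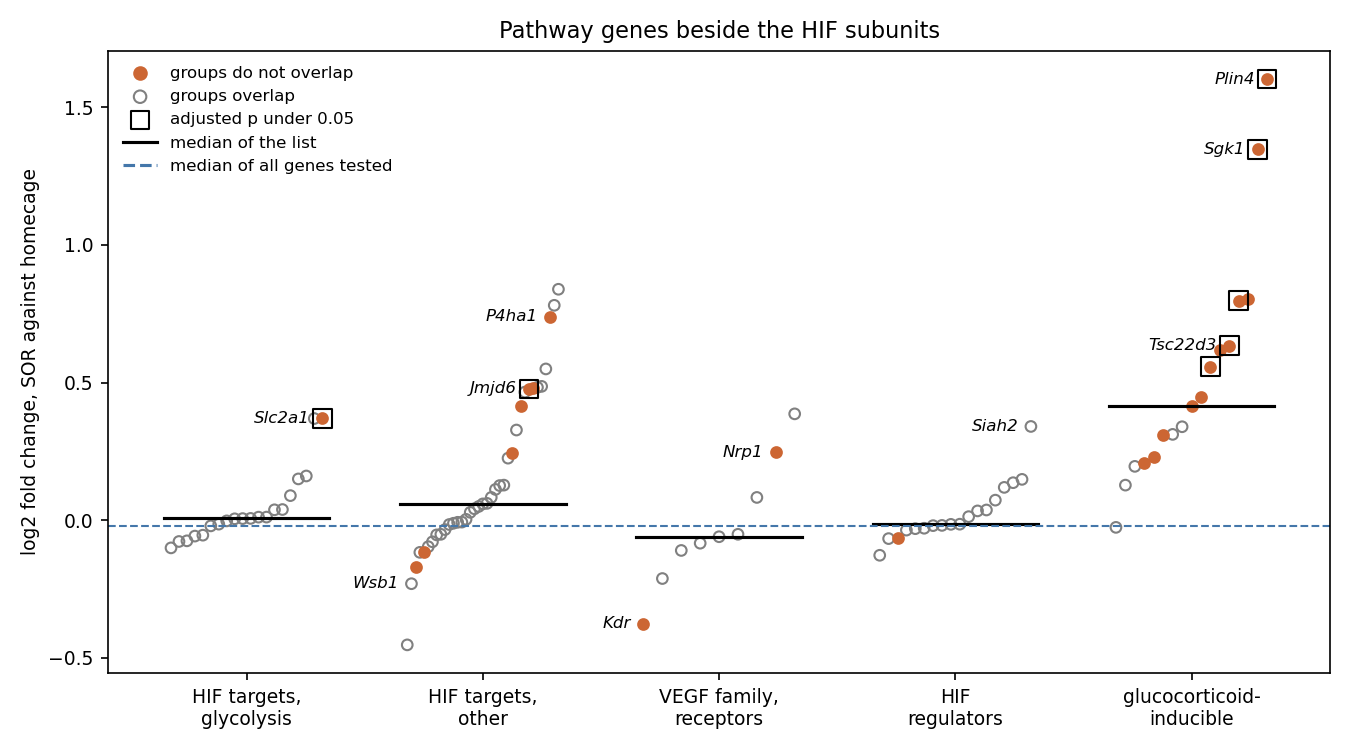
Log2 fold change, SOR against homecage (vertical axis), of every tested gene of 5 lists, with filled points where the groups do not overlap and squares where the adjusted p is under 0.05. Glycolytic targets and HIF regulators lie close to the all-gene median of -0.02, and *Slc2a1* and *Jmjd6* are the squared genes among HIF targets.

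Genes that act on HIF or beside it gave no call. Of 18 regulators, among them the von Hippel-Lindau complex, the asparagine hydroxylase gene *Hif1an* and the coactivators, 0 passed the adjusted threshold of edgeR's quasi-likelihood test and 1 had an unadjusted p under 0.05, with a median log2 fold change of -0.01. That one was *Siah2*, a ubiquitin ligase that degrades EGLN proteins, at 5.88 ± 0.570 CPM in homecage mice and 7.45 ± 0.860 CPM in SOR mice (0.34, adjusted p = 0.332), with groups that overlapped. *Cul2*, the scaffold of the complex, was lowest at -0.13 (adjusted p = 0.643). Of the 18 regulators, 1 had every SOR mouse below every homecage mouse, as 3.96% of all genes tested did, and 0 lay wholly above. Among 9 genes of the VEGF family and its receptors 0 passed and 3 had an unadjusted p under 0.05, 33.3% against 10.1% of all genes tested (median -0.06). The receptor gene *Kdr* was at 12.6 ± 1.2 CPM in homecage mice and 9.71 ± 1.27 CPM after SOR (-0.38, adjusted p = 0.266), with every SOR mouse below every homecage mouse. *Kdr* is also one of 12 endothelial markers, which summed to 178 to 214 CPM in homecage mice and 192 to 198 CPM in SOR mice. *Vegfc* was highest at 0.39 (adjusted p = 0.447), and the coreceptor gene *Nrp1*, named after its values were seen, was at 129 ± 3.79 and 152 ± 8.92 CPM (0.25, adjusted p = 0.0764). Among the 12 alternatives *Nrp1* passed in 5, the likelihood ratio test, DESeq2 and the 3 RUVs fits, and *Kdr* in 3, the RUVs fits. Adjusted p here are from edgeR's quasi-likelihood test with Benjamini-Hochberg adjustment.

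Relatives of the members gave no call either. Of 12 tested bHLH-PAS factors, the family to which HIF subunits belong, 0 passed the adjusted threshold of edgeR's quasi-likelihood test. An unadjusted p under 0.05 was seen in 1, lower in SOR. Among those of at least 1 CPM the log2 fold changes ran from -0.49 for *Npas4* to 0.08 for *Ncoa2*. *Npas4*, the activity-dependent neuronal factor, was not the 1 under 0.05 (unadjusted p = 0.0519, adjusted p = 0.503, same test). Of 7 tested BNIP relatives and mitophagy receptors 0 passed and 0 had an unadjusted p under 0.05, from *Bcl2l13* at -0.10 to *Bnip3l* at 0.00.

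Genes induced by glucocorticoids, the stress steroids, were listed beside the HIF targets. Of 17 tested, 16 were higher, 94.1% against 43.8% of all genes (median log2 fold change 0.42). In 12 the groups did not overlap, all higher, 70.6% against 2.98% of all genes. Called were 5, all higher, where 0.173% of all genes tested were called in either direction. They were *Plin4* at 1.6, *Sgk1* at 1.35, *Nfkbia* at 0.80, *Tsc22d3* at 0.63 and *Errfi1* at 0.56. Their adjusted p were 0.000378 to 0.00553 in edgeR's quasi-likelihood test with Benjamini-Hochberg adjustment. All 5 passed in each of the 12 alternative fits and each of the 8 fits with a mouse left out. The list is not uniform, since *Fkbp5*, the chaperone gene of the receptor, stood at -0.03 (adjusted p = 0.953). It shares *Ddit4* and *Angptl4* with the HIF targets and was chosen with results of these data known, so it is no independent evidence of a direction.

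The 5 genes whose level over the 8 mice was most like that of *Hif3a* were *Eva1a*, *Foxo3*, *Fas*, *Zfp882* and *Tsc22d3*. Likeness was the mean absolute difference of standardised log2 CPM among 16351 genes of at least 1 CPM, which was 0.123 SD for *Eva1a* and 0.251 SD for *Tsc22d3*, against a median of 1.16 SD. *Eva1a* ran from 7.17 to 7.63 CPM in homecage mice and was 8.62, 7.60, 8.18 and 8.98 CPM in SOR mice (log2 fold change 0.19). *Foxo3*, a stress-responsive forkhead factor, differed by 0.21 and *Fas*, a death receptor gene, by 1.0, with adjusted p of 0.213 and 0.129 in edgeR's quasi-likelihood test with Benjamini-Hochberg adjustment. *Tsc22d3*, known as GILZ, was the only one of the 5 past the threshold. The 5 genes were picked for this likeness over the same 8 mice, so their shared pattern is a description of the choice. No listed HIF target was among the 5. So few of 16351 genes would rarely hold a listed target, so this absence says nothing about the targets.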

How the data were processed

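Bulk RNA-seq of dorsal hippocampus was measured in 8 mice, 4 homecage and 4 SOR, grouped by sample title. The deposited values are estimated counts per gene, summarised by the authors with tximport and not normalised. The quantifier behind tximport is not given in the sources used here: the methods name STAR and featureCounts. The methods name a ribosomal depletion kit, while the labels say polyA RNA. The labels name the mouse build equal to GRCm38, and 54495 of the 54532 gene IDs were found in the GENCODE annotation of that build, which gave symbols, positions and exon lengths (all annotated exons merged).

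Estimated counts were rounded, filtered with filterByExpr (22018 genes kept) and scaled by upper quartile. SOR was compared with homecage by edgeR 4.0.16 (R 4.3.3) quasi-likelihood tests, adjusted by Benjamini-Hochberg over the 22018 genes. Calls needed an adjusted p below 0.05 together with a change of more than 1.4-fold. Exact two-sided permutation tests over the 70 assignments used log2 CPM. CPM uses the scaled library sizes and does not correct for gene length. The biological coefficient of variation was 14.1%. Alternatives were TMM and RLE factors, library size alone, 2 other filters, the likelihood ratio test, DESeq2 1.42.0, limma-voom (limma 3.58.1), the likelihood ratio test with 1 to 3 RUVs factors (the study used RUVs, with a number of factors not given in the sources used here), a replicate block and leaving out each mouse. On simulated data with 200 changed genes the test recovered 48.1%, 78.6% and 86.4% of those changed 1.5, 2 and 3 times.

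Named genes are the 10 members, each list's genes past the adjusted threshold, its highest and lowest gene of at least 1 CPM, and the 5 genes most like *Hif3a*. Genes named by other routes are marked in the text. The members and gene lists were chosen with earlier results of these data known. Replicates differed by more than sampling noise (chi-square per degree of freedom 11.1 to 49.2). P-values of the edgeR fits weigh the group difference against variation between mice, which is modelled with information shared across genes. Promoter windows are from RefSeq. The protein motif search that was planned was not run.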

Additional observations from a re-analysis of the deposited data

Results flagged for a closer look

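In groups of 4 mice, a value was marked when its gap to the nearest other mouse, divided by the whole range, was above Dixon's 95% critical value. Among 80 groups searched 10 were marked, where chance marks about 1 in 20. Among the HIF and EGLN genes, SOR replicate 1 stood above the other SOR mice in *Hif1a* (ratio 0.876, 104 CPM against 95.8 to 96.8) and in *Egln1* (0.851, 54.8 CPM against 51 to 51.6). Homecage replicate 1 stood above its group in *Egln3* (0.879, 2.00 CPM against 1.48 to 1.54). Homecage replicate 3 stood below its group in *Vegfa* (0.900, 20.5 CPM against 29.0 to 30.0).

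The other marked values were in genes beside them. In *P4ha1*, SOR replicate 1 was highest (0.868, 131 CPM against 81.5 to 88.0), and in *Nrp1*, SOR replicate 3 was lowest (0.853, 139 CPM against 156 to 158). Homecage replicate 1 was highest in *Vegfc* (0.849, 1.67 CPM against 1.36 to 1.4) and homecage replicate 2 in *Fkbp5* (0.853, 40.8 CPM against 35.5 to 36.3). *Kdm4c* was marked in both groups, for homecage replicate 4 (0.892, 49.5 CPM against 48.1 to 48.2) and SOR replicate 2 (0.830, 47.5 CPM against 43.6 to 44.3).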

How the results depend on the processing

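Each value was recomputed under 12 alternatives and with each of the 8 mice left out. Of 200 recomputed values of the 10 genes, 182 kept their direction and side of the threshold, 11 came past the threshold and 7 changed sign. The reported fit called 38 genes (33 higher, 5 lower), against 105 (69 and 36) by the likelihood ratio test, 112 (84 and 28) by DESeq2, and 134 (83 and 51), 191 (104 and 87) and 203 (105 and 98) by the likelihood ratio test with 1, 2 and 3 RUVs factors, to be read against the 105 of that test without factors. Leaving out a mouse gave 22 to 38. Of the 10 genes, 1 was called, *Hif3a*, without a filter, by the likelihood ratio test, by DESeq2 and with 1, 2 and 3 RUVs factors, and its log2 fold changes there were 1.86, 1.87, 1.89, 1.83, 1.64 and 1.64, against 1.5 to 2.08 with a mouse left out. HIF targets past the threshold were 2, against 0 with library size alone, 6 by the likelihood ratio test, 8 by DESeq2, 7, 8 and 9 with 1, 2 and 3 RUVs factors and 0 to 1 with a mouse left out. With the replicate block, *Jmjd6* alone stayed past, 1 target, and *Hif3a* had a log2 fold change of 1.74 (edgeR quasi-likelihood, adjusted p = 0.125). Same-numbered mice did not deviate together (correlations -0.0837 to 0.073, other pairs -0.200 to 0.194), so the mice share only a number. With a mouse left out, the log2 fold change ran from -0.0211 to 0.076 for *Arnt2*, from -0.0009 to 0.0437 for *Egln1*, from -0.0234 to 0.1349 for *Egln3*, from -0.3621 to 0.0682 for *Slc16a3*, from -0.0244 to 0.0192 for *Bnip3l* and from -0.0712 to 0.049 for *Fkbp5*. The cause of these changes was not tested. *Hif3a* and *Egln3* were the least abundant of the 10 genes. In *Hif3a* the SOR mice also spread widely, with an SD of 1.55 on a mean of 2.82 CPM. The parts of depth and of spread between mice in these limits were not tested.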
